A study of Mus musculus with 12 samples.

Results

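Imprinted genes are transcribed from only the maternal or only the paternal chromosome, according to DNA methylation laid down in the parental germ line. Of the 23337 gene symbols counted in mouse urothelium, 8 imprinted genes with known roles in growth were taken by name: H19, Igf2, Dlk1, Meg3, Peg3, Plagl1, Grb10 and Mest. All 8 are present in the tables of both times. The study compared peeled urothelium, the lining epithelium of the urinary tract peeled off its underlying tissue, of Stag2-WT and Stag2-KO mice. Every mouse of both genotypes ate a diet with TMX, taken here to mean tamoxifen, for a week as the induction, and was killed 1 week or 1 month after starting it, so the WT animals carry the treatment too. There were 3 mice per genotype and time, 12 in all, and the 1-month libraries fall into batches 2 and 3 of the labels, with 2 WT and 2 KO libraries in batch 2 and 1 of each in batch 3. Strain, age, sex, the way Stag2 was deleted and the cells it was deleted in are not given in the sources used here.

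Stag2 encodes a subunit of cohesin, the ring that extrudes chromatin loops until it meets bound Ctcf. At the H19 and Igf2 locus, Ctcf binds the unmethylated maternal control region and keeps enhancers shared by both genes away from Igf2, so that H19 is made from the maternal and Igf2 from the paternal chromosome. At the Dlk1 to Dio3 locus the paternal chromosome makes Dlk1 and the maternal one makes Meg3 and the noncoding RNAs beyond it. Igf2 is a fetal growth factor, Grb10 an adaptor that restrains insulin and IGF receptor signalling, and Peg3 and Plagl1 are zinc finger proteins. The counts do not separate the parental alleles, so imprinting itself was not measured.

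In the GENCODE M21 annotation of GRCm38, the build that the submitters' processing notes name as mm10, H19 lies at chr7:142575529-142578143 and Igf2 at chr7:142650766-142666816, both on the minus strand and 72.6 kb apart. Dlk1 lies at chr12:109452823-109463336 and Meg3 at chr12:109541001-109571726, both on the plus strand and 77.7 kb apart. Peg3 lies at chr7:6703892-6730431 (minus strand), Plagl1 at chr10:13060504-13131694 (plus), Grb10 at chr11:11930508-12038683 (minus) and Mest at chr6:30723547-30748465 (plus). H19 and Meg3 are annotated as long noncoding RNA genes and the other 6 as protein coding.

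RefSeq promoter windows of GRCm38.p6, 300 bases around an annotated start site, matched 7 of the 8 genes with 14 windows, and H19 was not among them. The windows were searched on both strands for a 14-letter Ctcf core, its shorter last part GGNGGCAG, the YY1 motif GCCATNTT, the cyclic AMP response element TGACGTCA and the CHR element TTTGAA, which MuvB complexes such as DREAM bind. The first Meg3 window and the Peg3 window are shown because both genes were lower in KO than in every WT library at 1 month. Each holds the letters TGACGTCA, printed in capitals, which 1.79% of 32851 promoter windows hold and the second Meg3 window does not. The match begins 57 bases before the Meg3 start site (chr12:109540746-109541045, plus strand) and 178 bases before the Peg3 start site (chr7:6730370-6730669, minus strand).
Meg3: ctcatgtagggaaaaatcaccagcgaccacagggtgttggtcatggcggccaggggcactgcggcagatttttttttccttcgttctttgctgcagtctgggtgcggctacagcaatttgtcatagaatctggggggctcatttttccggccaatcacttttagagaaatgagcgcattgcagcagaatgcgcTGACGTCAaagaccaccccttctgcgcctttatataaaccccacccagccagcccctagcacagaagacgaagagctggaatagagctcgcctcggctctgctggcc
Peg3: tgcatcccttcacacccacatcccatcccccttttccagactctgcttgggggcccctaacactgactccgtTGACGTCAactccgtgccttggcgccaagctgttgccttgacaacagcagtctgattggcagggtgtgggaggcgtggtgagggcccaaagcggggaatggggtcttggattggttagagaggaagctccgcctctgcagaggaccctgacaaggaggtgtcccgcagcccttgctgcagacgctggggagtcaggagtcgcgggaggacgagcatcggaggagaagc
GGNGGCAG occurs in 12.6% of all windows, and among the 14 in 1 window each of Igf2 and Grb10. TTTGAA occurs in 17.9% of all windows, and among the 14 in the second Meg3 window. The longer Ctcf core (0.0365% of windows) and GCCATNTT (6.05%) have no match in the 14. These matches describe letters and show no binding.

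Depth and library checks come first, because some touch every result. Total counts ran from 5620137 to 9497088 at 1 week and from 5580961 to 8308467 at 1 month, and a floor of 3 counts equals 0.311 to 0.613 CPM (counts scaled to a common library size) at 1 week and 0.370 to 0.590 CPM at 1 month, for counting error only. CPM here are scaled by TMM, separately at each time, and time coincides with batch 1, so no test of time was made. Stag2 had 108 to 154 CPM in WT and 61.1 to 76.2 CPM in KO at 1 week, and 46.4 to 61.9 against 19.3 to 38.0 CPM at 1 month (edgeR adjusted p 0.198 and 0.0507). Where its 3′ reads lie relative to the deleted part is not known, so these values are a limited check of the labels. Xist had 1 to 13 counts in the WT and 6392 to 10406 in the KO libraries of 1 week, so genotype and the presence of Xist or of Y-linked RNA cannot be told apart at that time. The Y-linked genes split the other way, with 1360 to 2140 counts in WT and 0 to 4 in KO. At 1 month KO replicate 3 had 7764 Xist and 0 Y-linked counts, and the other 5 libraries 2 to 28 and 632 to 1380. KO replicate 3 of 1 week stood apart, with Spearman correlations of at most 0.843 to the other libraries of its time. The urothelial markers Upk1a, Upk1b, Upk2, Upk3a, Upk3b and Krt20 summed to 4689 to 9182 CPM at 1 week and 7280 to 22950 CPM at 1 month, and 8 fibroblast markers to 3421 to 10020 and 7699 to 13460 CPM, so stromal RNA was present in every library. In such bulk samples fewer cells of a type and less RNA per cell cannot be told apart.

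Of the 8 genes, Peg3 passed the test at 1 month, where it fell in KO, and no other gene of the 8 passed at either time. Meg3 was lower in each KO than in each WT library at both times. Grb10 had higher mean levels in KO at both times, H19 was higher in each KO library at 1 week, and Igf2 had opposite estimates at the 2 times. Dlk1 and Mest were near the floor in all 12 libraries, did not pass the filter on low counts and were not tested. At 1 week 0 of the 6 tested genes passed an adjusted p of 0.05 in edgeR's quasi-likelihood test, where 0.0627% of all 12754 genes tested did (0.0157% higher and 0.0470% lower in KO), and 3 of 6 had an unadjusted p under 0.05, against 15.5% of all genes. DESeq2, run as an alternative, called 3 of 6 at 1 week, H19 and Grb10 as higher and Meg3 as lower, and 7.52% of the 12726 genes it tested. At 1 month 1 of 6 passed, against 2.22% of 12139 genes (0.997% higher and 1.22% lower), and 4 of 6 had an unadjusted p under 0.05, against 21.5%. WT and KO levels lay wholly apart for 3 of the 6 at 1 week, 2 with KO above and 1 below, as for 26.5% of all genes tested (14.1% above, 12.5% below). At 1 month this held for 2 of 6, both with KO below, and for 13.3% of all genes (5.72% above, 7.58% below). The median log2 fold change of the 6 was 0.29 at 1 week and 0.28 at 1 month, beside 0.02 and -0.01 over all genes tested. Because the 8 genes were chosen with earlier results of these data known, these shares are a description and no test of the list.

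**Figure D1:**
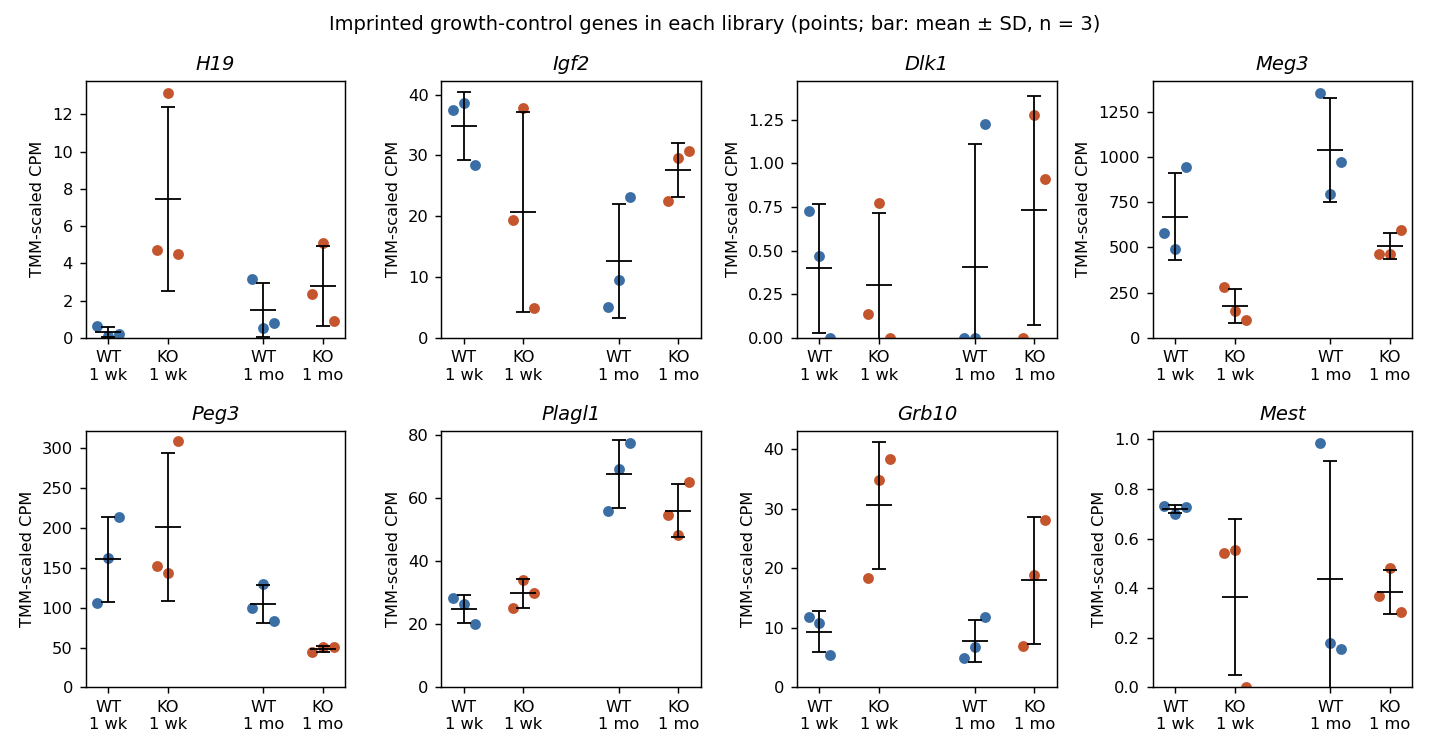
TMM-scaled CPM of the 8 genes (1 panel each, vertical axis from 0) in WT (blue) and KO (orange) libraries at 1 week and 1 month, with the mean and SD of 3 libraries (SD bars end at 0). Meg3 is lower in every KO library than in every WT library of the same time, and Dlk1 and Mest stay below 1.3 CPM throughout.

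Meg3, a maternally expressed noncoding RNA, had lower values in KO at both times. At 1 week it had 577, 491 and 944 CPM in WT replicates 1 to 3 and 281, 145 and 98.5 CPM in the KO replicates. At 1 month it had 1357, 795 and 969.9 CPM in WT and 465, 465 and 594 CPM in KO. The highest KO library lay below the lowest WT library each time, a pattern that 12.5% of genes showed at 1 week and 7.58% at 1 month. WT averaged 671 ± 240 CPM and KO 175 ± 94.8 CPM (SD, n = 3 each) at 1 week, with log2 fold change -1.94 (SE 0.47, edgeR adjusted p 0.139). The 1-month means were 1041 ± 288 and 508 ± 74.3 CPM, with log2 fold change -1.04 (SE 0.26, edgeR adjusted p 0.0531). Neither difference passed over all genes. Within batch 2 the 1-month difference was -1.16 and within batch 3 it was -0.71 on the log2 scale. Here and for the genes below, a batch 3 value sets 1 KO against 1 WT library, without replication. That KO library, replicate 3, is the 1-month library with 7764 Xist counts. Over the alternatives other than leaving out a library, the adjusted p ran from 0.00295 to 0.154 at 1 week and from 0.00250 to 0.504 at 1 month.

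The noncoding RNAs downstream of Meg3 were also lower. Rian, which hosts box C/D snoRNAs, begins 32.2 kb beyond the end of Meg3, and Mirg, which hosts many microRNAs, begins 68.0 kb beyond Rian, all on the plus strand. Rian had 63.2, 42.3 and 70.8 CPM in WT and 15.9, 13.03 and 0.409 CPM in KO at 1 week, and 51.7, 44.3 and 39.9 against 17.8, 24.0 and 17.3 CPM at 1 month. It fell at 1 month by 1.20 on the log2 scale (SE 0.23, edgeR adjusted p 0.0232), and at 1 week its log2 fold change was -2.56 (SE 0.91, edgeR adjusted p 0.251). Mirg had 7.54, 3.74 and 12.4 CPM in WT and 2.43, 0.442 and 0.409 CPM in KO at 1 week, where the last KO values rest on 4 and 2 counts. At 1 month it had 13.4, 10.4 and 10.1 CPM in WT and 3.21, 3.83 and 2.13 CPM in KO. It fell at 1 month by 1.90 (SE 0.35, edgeR adjusted p 0.0201), and at 1 week its log2 fold change was -2.81 (SE 0.81, edgeR adjusted p 0.182). Both RNAs were lower in all KO than in all WT libraries at each time. Both lost the 1-month call without the batch covariate (adjusted p 0.298 and 0.242) and when all 12 libraries shared a fit (0.606 and 0.469). Rian also lost it without WT replicate 1, WT replicate 2 or KO replicate 1, and Mirg without any of these or KO replicate 2, with adjusted p of 0.0504 to 0.0919.

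**Figure D2:**
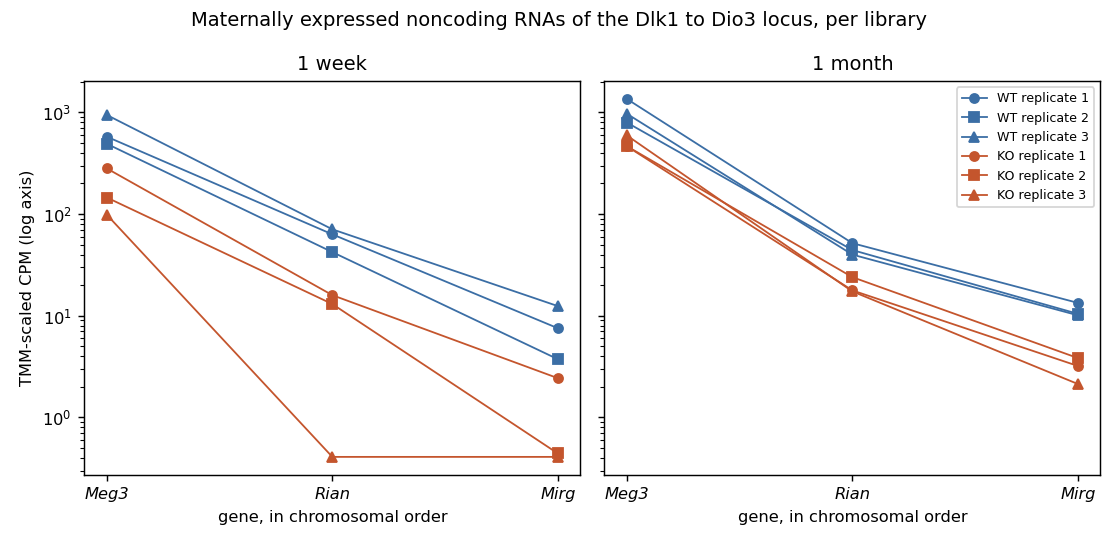
TMM-scaled CPM (log axis) of Meg3, Rian and Mirg in chromosomal order at 1 week (left) and 1 month (right), 1 line per library, WT in blue and KO in orange. Every orange line lies below every blue line at each gene, and Rian in KO replicate 3 of 1 week is at 0.409 CPM.

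Dlk1, the paternally expressed Notch-like protein of the same locus, had 0 to 6 counts in WT and 0 to 7 in KO at 1 week, and 0 to 8 counts in either genotype at 1 month. Means were 0.399 ± 0.369 and 0.303 ± 0.413 CPM at 1 week and 0.408 ± 0.707 and 0.730 ± 0.658 CPM at 1 month. A difference in Dlk1 was not detectable at this depth. Of the other protein-coding genes there, Rtl1 had at most 5 counts and Dio3, a thyroid hormone deiodinase, at most 10 in any library. The log2 ratio of Meg3 to Dlk1 averaged 10.17 ± 1.49 in WT and 8.43 ± 1.19 in KO at 1 week, a difference of -1.74 (two-sided exact permutation p 0.3, where 0.1 is the smallest p that 3 against 3 allows), and differed by -1.68 at 1 month (exact permutation p 0.2). With Dlk1 near 0, the ratio rests on Meg3 and on the prior count of 2.

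Abundant noncoding RNAs from other loci were looked up after these values were seen. Malat1 had log2 fold changes of -0.37 at 1 week and -0.25 at 1 month, and Neat1 of -0.45 and -0.07, with edgeR adjusted p of 0.508 to 0.886. Kcnq1ot1 and Airn, imprinted noncoding RNAs of other loci, had log2 fold changes of 0.02 and -0.28 at 1 week and of -0.17 and 0.32 at 1 month. None of the 4 passed, and their WT and KO libraries overlapped at both times.

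Peg3, a paternally expressed zinc finger gene, had 100.1, 130.1 and 83.4 CPM in WT and 44.0, 50.5 and 50.7 CPM in KO at 1 month. All 3 KO libraries lay close together below the lowest WT library. Means were 105 ± 23.7 and 48.4 ± 3.79 CPM, and Peg3 fell by 1.10 on the log2 scale (SE 0.22, edgeR adjusted p 0.0268), by 1.27 within batch 2 and by 0.71 within batch 3. At 1 week it had 106, 162 and 213 CPM in WT and 152, 144 and 308 CPM in KO. The genotypes overlapped, the highest value was that of KO replicate 3, and the log2 fold change was 0.33 (SE 0.41, edgeR adjusted p 0.718), or -0.17 without that library. The call at 1 month was lost without the batch covariate (adjusted p 0.334), in the fit of all 12 libraries (0.474), and without WT replicate 2, KO replicate 1 or KO replicate 2 (0.153, 0.0997 and 0.0829).

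Genes next to Peg3 were scarce. Usp29, which starts beside Peg3 on the opposite strand and is also paternally expressed, had 6 to 18 counts per library at 1 week and 1 to 10 at 1 month. Zim1, a maternally expressed neighbour, had 3 to 34 and 1 to 7 counts. Both were tested only at 1 week, with log2 fold changes of 0.15 and 0.24 and edgeR adjusted p of 0.904 and 0.889.

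Marker sums differed between the genotypes beside the 1-month results. The 8 fibroblast markers summed to 9718 to 13460 CPM in WT and 7699 to 9474 CPM in KO, 6 leukocyte markers to 492 to 1035 and 209 to 312 CPM, and the 3 basal urothelial markers Krt5, Krt14 and Trp63 to 128 to 541 and 643 to 706 CPM. Singly, 4 fibroblast estimates were higher and 4 lower in KO, with a median log2 fold change of 0.035. Of the single markers, 1 of 8 fibroblast genes passed, Pdgfrb, and it rose in KO, while 3 of 5 tested leukocyte genes (Cd74, C1qa and C1qb) and 1 of 6 luminal genes, Krt20, fell, where 0.997% of all genes rose and 1.22% fell. At 1 week the fibroblast sums, 3421 to 5586 CPM in WT and 4579 to 10020 CPM in KO, overlapped. All 8 fibroblast estimates were higher in KO at that time, with a median log2 fold change of 0.93 beside 0.02 over all genes, and 0 passed (edgeR). The part of cell composition in the Meg3, Peg3, Rian and Mirg values was not tested.

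H19, a maternally expressed noncoding RNA, was counted 5, 1 and 2 times in the WT replicates of 1 week and 35, 119 and 22 times in the KO replicates. This corresponds to 0.608, 0.117 and 0.207 CPM in WT and 4.73, 13.1 and 4.50 CPM in KO. The lowest KO value exceeded the highest WT value, as for 14.1% of genes tested at 1 week. WT averaged 0.311 ± 0.261 CPM, with 2 of 3 libraries under the floor of 3 counts, and KO 7.46 ± 4.93 CPM. The fitted log2 difference was 4.55 (SE 0.79, edgeR adjusted p 0.0934), which did not pass over all genes and rests on WT counts of 5, 1 and 2. The adjusted p ran from 9.04e-06 under DESeq2 to 0.103 over the alternatives that keep all libraries. Without KO replicate 3, the library that stood apart, it was 0.0278, and without any other single library 0.0789 to 0.507. At 1 month the WT replicates gave 16, 3 and 5 counts of H19 and the KO replicates 19, 32 and 6, the genotypes overlapped, and the log2 fold change was 0.83 (SE 0.64, edgeR adjusted p 0.478).

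Igf2 had 37.4, 38.6 and 28.5 CPM in WT and 19.3, 37.8 and 4.91 CPM in KO at 1 week. KO replicate 2 lay within the WT range and KO replicate 3, with 24 counts, was the lowest library. The log2 fold change was -0.74 (SE 0.63, edgeR adjusted p 0.584). At 1 month Igf2 had 5.12, 9.54 and 23.1 CPM in WT and 22.4, 29.6 and 30.7 CPM in KO. The highest WT library, the one of batch 3, lay just above the lowest KO library, and the log2 fold change was 1.31 (SE 0.34, edgeR adjusted p 0.0638). Batch 2 by itself showed 1.83 and batch 3 showed 0.41. Over the alternatives that keep both batches, the adjusted p ran from 1.75e-04 with no filter on low counts to 0.653 without the batch covariate. It was 0.00435 in batch 2 alone, where 12.2% of all genes were called, and 0.225 without WT replicate 1. Summed basal urothelial markers were also higher in KO at 1 month (643 to 706 against 128 to 541 CPM), as were summed endothelial ones, at 154 to 307 against 75.2 to 129.6 CPM. Singly, 0 of 2 tested basal and 0 of 4 tested endothelial markers passed (edgeR). The part of these cell types in the Igf2 values was not tested.

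The log2 ratio of H19 to Igf2 sets the 2 genes of the locus against each other within a library. At 1 week it was -5.46, -6.72 and -5.97 in WT and -1.98, -1.50 and -0.12 in KO, without overlap. The means differed by 4.85 (two-sided exact permutation p 0.1, the smallest possible with 3 against 3). With so few H19 counts in WT, the size depends on the prior count of 2, and a prior count of 0.5 gave 5.54. At 1 month it was -0.65, -3.53 and -4.44 in WT and -3.10, -2.46 and -4.66 in KO, a difference of -0.53 (exact permutation p 0.8). At 1 month WT replicate 1 had the highest ratio of all 6 libraries, with 16 counts of H19 and 26 of Igf2, and without it the difference was 0.59. Ins2, the next gene, had at most 3 counts in any library.

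**Figure D3:**
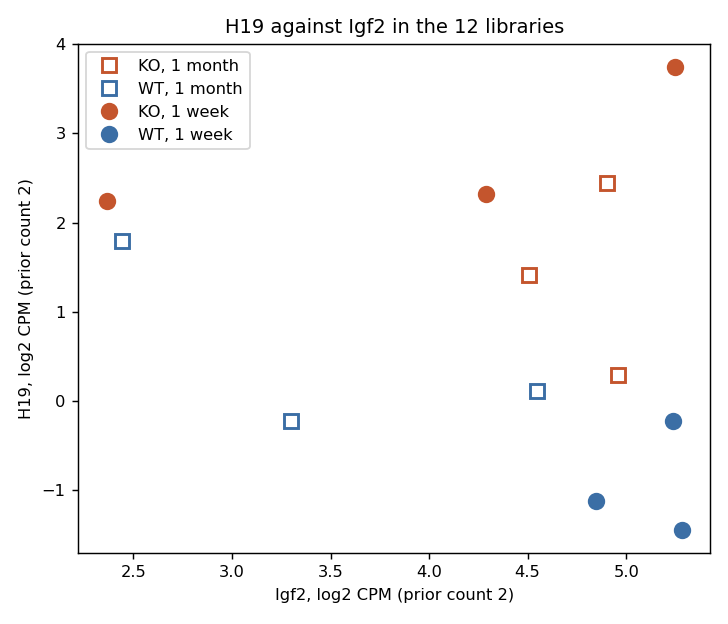
H19 (vertical) against Igf2 (horizontal), both as log2 CPM with a prior count of 2, in the 12 libraries, with filled circles for 1 week, open squares for 1 month, WT in blue and KO in orange. The 3 WT libraries of 1 week sit at the lower right, and the 3 KO libraries of that time lie higher on the H19 axis with Igf2 spread from 4.91 to 37.8 CPM.

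Grb10 had 11.9, 10.9 and 5.39 CPM in WT and 18.4, 34.9 and 38.4 CPM in KO at 1 week. All KO libraries were above all WT libraries, and the log2 fold change was 1.70 (SE 0.45, edgeR adjusted p 0.158). At 1 month it had 4.92, 6.84 and 11.8 CPM in WT and 6.90, 18.9 and 28.2 CPM in KO. Here KO replicate 1 lay within the WT range, and the log2 fold change was 1.17 (SE 0.36, edgeR adjusted p 0.0981). Batch 2 by itself showed 0.94 and batch 3 showed 1.23. Neither estimate passed over all genes. Of the neighbouring genes, Cobl had log2 fold changes of -0.13 and -0.28 with overlapping libraries, and Ddc had at most 8 counts. At 1 week the summed levels of markers of smooth muscle (348 to 1049 against 109 to 274 CPM), endothelium (222 to 373 against 141 to 156 CPM), leukocytes (244 to 469 against 135 to 225 CPM), Schwann cells (18.5 to 48.3 against 7.15 to 9.85 CPM) and dividing cells (101 to 656 against 15.8 to 17.1 CPM) were also higher in all KO libraries. None of these markers passed singly (edgeR), and some, such as Des, Kdr and Tie1, were lowest in KO replicate 3. Fibroblast marker sums overlapped, with all 8 estimates higher in KO. The part of these cell types in the Grb10 and H19 values was not tested.

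Plagl1, a paternally expressed zinc finger transcription factor, showed no detectable genotype difference. It had 28.3, 26.6 and 20.01 CPM in WT and 25.3, 34.2 and 30.1 CPM in KO at 1 week, and 56.1, 69.5 and 77.6 against 54.9, 48.4 and 65.1 CPM at 1 month. The log2 fold changes were 0.26 (SE 0.29, edgeR adjusted p 0.684) and -0.27 (SE 0.20, edgeR adjusted p 0.454), with overlap at both times. The adjacent Phactr2 had log2 fold changes of 0.33 and -0.21 and did not pass either. Mest, a paternally expressed hydrolase, gave 6, 6 and 7 counts in the WT replicates of 1 week and 4, 5 and 0 in the KO replicates, and 1 to 5 per library at 1 month, too few to compare. Copg2, which overlaps the end of Mest on the opposite strand, was lower in each KO library at 1 month, with 5.51, 3.60 and 5.20 CPM in WT and 2.96, 2.08 and 2.74 CPM in KO (log2 fold change -0.86, SE 0.42, edgeR adjusted p 0.258). Its 1-week estimate of 1.59 rests on KO replicate 3 at 58.3 CPM, where the other 5 libraries had 4.09 to 8.50 CPM.

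**Figure D4:**
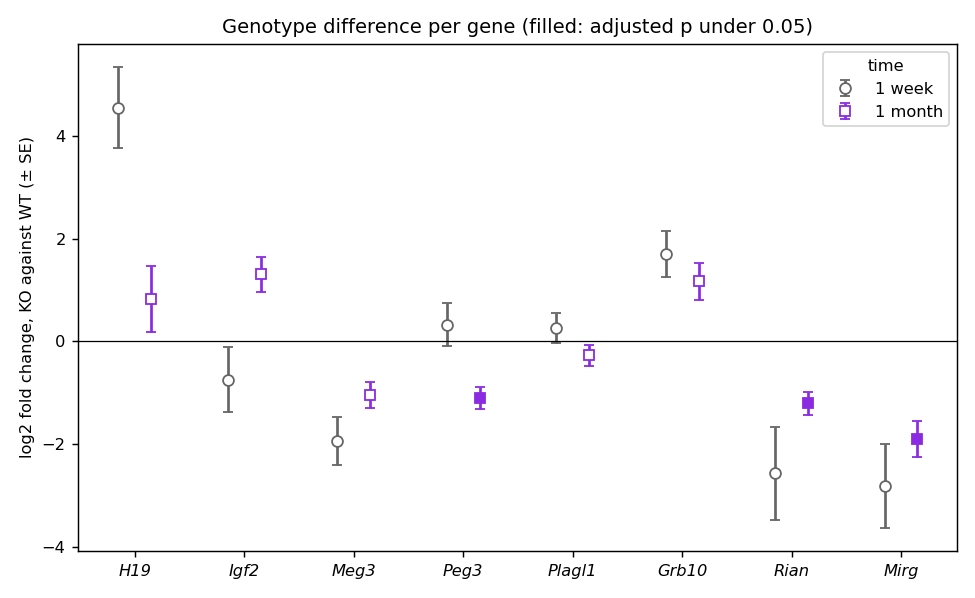
Log2 fold change of KO against WT with its standard error for the 6 tested genes and the neighbouring RNAs Rian and Mirg, at 1 week (grey circles) and 1 month (purple squares), filled where the edgeR adjusted p is under 0.05. Only Peg3, Rian and Mirg at 1 month are filled, and Meg3, Rian and Mirg lie below 0 at both times.

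Whether the genotype difference changed between the times was examined with an interaction term over the 12 libraries, for which 0.00% of 13122 genes passed and 19.9% had an unadjusted p under 0.05. Of the 6 genes 0 passed with edgeR and 3 had an unadjusted p under 0.05, and DESeq2 called 1, H19, and 7.0% of the 13101 genes it tested. The difference of 1 month minus 1 week was -3.74 for H19 (SE 1.12, edgeR adjusted p 0.135), 2.09 for Igf2 (SE 0.81, adjusted p 0.200) and -1.41 for Peg3 (SE 0.50, adjusted p 0.177). For Meg3, Plagl1 and Grb10 it was 0.91, -0.52 and -0.52, with edgeR adjusted p of 0.371 to 0.655.

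Other imprinted genes had estimates in both directions, 10 higher and 18 lower at 1 week and 18 higher and 12 lower at 1 month. Of 43 further imprinted genes in the tables, 28 were tested at 1 week and 0 passed (edgeR), with 6 at an unadjusted p under 0.05 (15.5% of all genes) and 1 called by DESeq2 (7.52% of all genes). Their median log2 fold change was -0.22, beside 0.02 over all genes. The largest 1-week estimates were those of Rasgrf1, a guanine nucleotide exchange factor (-2.02, adjusted p 0.188), Ascl2, a transcription factor (-1.73, adjusted p 0.225), and Peg10, a retrotransposon-derived gene (1.70, adjusted p 0.252). Ascl2 in KO lay wholly below WT at both times. At 1 month it had 7.27 to 8.47 CPM in KO against 10.4 to 14.4 CPM in WT (log2 fold change -0.71, edgeR adjusted p 0.186). At 1 week KO lay wholly below WT for 7 of the 28 and wholly above for 3, against 12.5% and 14.1% of all genes. At 1 month 30 were tested, 1 passed (2.22% of all genes), and the median was 0.29 beside -0.01. KO lay wholly below WT for 1 of the 30 and wholly above for 4, against 7.58% and 5.72% of all genes. The gene that passed was Blcap, which rose in KO by 1.04 (SE 0.24, edgeR adjusted p 0.0448) with 15.5, 20.9 and 43.4 CPM in WT and 40.1, 49.7 and 64.1 CPM in KO, so the libraries overlapped. Nap1l5 (1.46, adjusted p 0.154), Peg12 (1.38, adjusted p 0.133) and Asb4 (1.26, adjusted p 0.264) had the largest 1-month estimates. Cdkn1c, an imprinted inhibitor of cyclin-dependent kinases, had 9.33 to 16.7 CPM in WT and 1.64 to 8.78 CPM in KO at 1 week, and 12.2 to 16.2 against 16.6 to 20.3 CPM at 1 month, so that the KO libraries lay wholly below WT at the first time and wholly above at the second, with edgeR adjusted p of 0.326 and 0.338 and an interaction adjusted p of 0.176. It was singled out after its values were seen.

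Genes of the IGF axis, on which Igf2 and Grb10 act, were counted from a list of ligands, receptors and binding proteins with 19 genes. At 1 week 15 were tested and 0 passed (edgeR), with 3 at an unadjusted p under 0.05 (15.5% of all genes) and 3 called by DESeq2 (7.52% of all genes). Igf1, the other IGF ligand, had 6.81, 8.17 and 4.35 CPM in WT and 35.0, 115 and 231 CPM in KO at 1 week (log2 fold change 4.30, SE 0.72, edgeR adjusted p 0.0927). Pappa, a protease that cleaves IGF binding proteins, had a log2 fold change of 3.44 (adjusted p 0.0927), and Igfbp4, one of its substrates, of 3.00 (adjusted p 0.160). These 3 genes, named as the 3 largest estimates of the list, were highest in KO replicate 3, the library that stood apart. KO lay wholly above WT for each of them, for 4 of the 15 in all, and for 14.1% of all genes. It lay wholly below WT for 1 of the 15, against 12.5% of all genes. At 1 month 1 of 15 passed (2.22% of all genes), Igfbp7, which rose by 1.15 (SE 0.24, edgeR adjusted p 0.0319) with 56.3, 94.0 and 329.5 CPM in WT and 182, 202 and 557 CPM in KO. Igf2bp1, an RNA-binding protein that binds Igf2 transcripts, was lower in each KO library (1.36 to 1.44 against 3.42 to 4.92 CPM, log2 fold change -1.64, adjusted p 0.0782), and Igfbp3, a binding protein, had a log2 fold change of 0.94 (adjusted p 0.220). The receptors Igf1r, Insr and Igf2r, the last itself imprinted and a member of both lists, did not pass at either time.

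**Figure D5:**
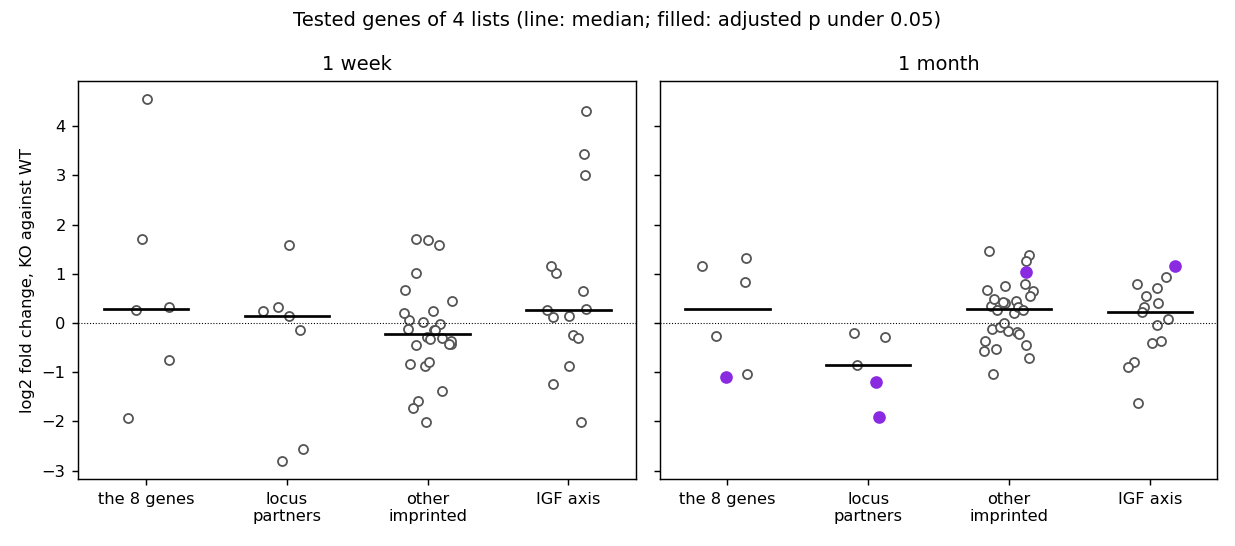
Log2 fold change of KO against WT at 1 week (left) and 1 month (right) for the tested genes among the 8, their locus partners, other imprinted genes and the IGF axis (1 point per gene, line at the median, filled where the edgeR adjusted p is under 0.05). No point is filled at 1 week, and at 1 month Peg3, Rian, Mirg, Blcap and Igfbp7 are.

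Genes whose levels ran most alike to each of the 6 over the 12 libraries were named by Spearman correlation among 13173 genes, as a description of libraries that share time and batch. The closest were Pnck, Scly and Gm7102 for Meg3 (0.930 to 0.951), Mbd5, C1galt1 and Clk1 for Peg3 (0.958 to 0.965), and Fam108a, Tra2b and Mmadhc for Igf2 (0.958 to 0.972). For Grb10 they were Epb4.1l2, Svep1 and Sncg (0.923 to 0.958), for Plagl1 Parva, Tctn3 and 5730403B10Rik (0.930 to 0.944), and for H19 Serpina3n, Plcl1 and Cp (0.860 to 0.888). Over the same libraries Meg3 correlated with Rian at 0.755 and with Mirg at 0.846, and H19 with Igf2 at -0.18.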

How the data were processed

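Reads of the 3′ ends of polyadenylated RNA (QuantSeq, forward kit, sense strand per the labels) were turned by the authors into the deposited tables of raw counts per gene symbol, 1 per time. The submitters' processing notes name Bowtie, TopHat, HTSeq, DESeq2 and mm10, and versions and annotation are not given in the sources used here. Columns were matched by library name. For WT replicate 3 of 1 month the title carries another animal number than the library name. Replicates are mice, numbered in accession order, so numbers pair nothing.

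The counts were tested with edgeR 4.0.16 in R 4.3.3 (quasi-likelihood, robust, TMM, filterByExpr with its defaults, two-sided, Benjamini-Hochberg over all genes tested, threshold 0.05), in a fit per time, with batch as a covariate at 1 month, and in a fit of all 12 libraries for the interaction. The standard error is the absolute log2 fold change over the square root of F. Log2 CPM used a prior count of 2. DESeq2 1.42.0, other scaling, filters and subsets were alternatives. The steps were tested on simulated data in which 200 genes were changed 4-fold. Of these, 10 were called at 1 week, 188 at 1 month and 1 in the interaction, with 1, 18 and 0 false calls. At 1 week and in the interaction, a gene that did not pass may thus still differ. Changes smaller than 4-fold were not simulated, so at 1 month too a gene that did not pass may differ by less than that. In all 12 pairs of replicates counts differed by more than sampling noise (chi-square per degree of freedom at least 9.10). The 8 genes and all lists were chosen with earlier results of these data known. Named were all 8 genes, their locus partners, called list genes, the 3 largest estimates per list and time, and the 3 most alike genes. Zfp264 is a partner not matched in the tables. Promoters are from RefSeq.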

Additional observations from a re-analysis of the deposited data

How the results depend on the processing

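At 1 week 0 of the 8 genes, 0 locus partners, 0 other imprinted genes and 0 IGF axis genes were called (0.0627% of all genes). Without a filter on low counts 1 of the 8 and 2 of the IGF axis were (0.328% of all genes). Under DESeq2 the 4 counts were 3, 2, 1 and 3 (7.52%). With all 12 samples in a fit they were 2, 1, 0 and 3 (4.21%). At 1 month the counts were 1 of 6, 2 of 5, 1 of 30 and 1 of 15 tested genes, where 2.22% of all genes were called. Scaling by library size alone called 2 of the 8 (4.62% of all genes), no filter called 4 of the 8 and 5 of the IGF axis (7.09%), and DESeq2 called 3 and 2 (6.98%). Dispersions without the robust option called 0 other imprinted genes (1.98% of all genes). Without the batch covariate, or with all 12 samples in a fit, all 4 counts were 0, as was that over all genes. Batch 2 alone called 3 of the 8, 2 other imprinted and 4 IGF axis genes (12.2%). In the interaction DESeq2 called 1 of the 8 (7.0%), against 0. The causes of these shifts were not tested.

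Leaving out each replicate in turn gave 0 to 1 of the 8, 0 to 1 partners, 0 to 0 other imprinted and 0 to 3 IGF axis genes at 1 week (0.00% to 2.45% of all genes). At 1 month the ranges were 0 to 3, 0 to 2, 0 to 2 and 0 to 4 (0.361% to 12.3% of all genes). The interaction gave 0 to 0 of the 8 (0.00% to 3.29% of all genes). Without KO replicate 3 of 1 week, H19 and Rian passed there (edgeR adjusted p 0.0278 and 0.0239, 2.45% of all genes called). Without WT replicate 3 or KO replicate 3 of 1 month, Igf2 and Meg3 passed there (edgeR adjusted p 0.00311 to 0.0151, 12.3% called). Either omission leaves 1 library in batch 3, which the batch covariate fits exactly. The genotype estimates then rest on batch 2, so both runs repeat the one on batch 2 alone. Over all single omissions, the H19 to Igf2 difference ran from 4.37 to 5.25 at 1 week and from -1.32 to 0.59 at 1 month. That of Meg3 to Dlk1 ran from -2.29 to -0.93 and from -2.47 to -1.10. A prior count of 0.5, with all libraries kept, gave 5.54 for H19 to Igf2 at 1 week. Peg3 at 1 week ran from -0.17 to 0.54, the only log2 fold change of the 6 genes, Rian or Mirg to turn in sign under any alternative run. Library size scaling moved the median of all genes at 1 month to 0.21 and the calls from 121 higher and 148 lower to 456 and 105. No paired analysis was possible because replicate numbers follow accession order.

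With 5580961 to 9497088 counts per library, Dlk1, Mest and the locus partners Ins2, Rtl1, Dio3, Ddc and Klf14 had at most 10 counts in any library and were not tested.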

Other observations

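Genes that maintain methylation imprints and genes of the loop machinery were read from a list of 19, of which 18 are in the tables. At 1 week 0 of 16 tested genes passed edgeR's test and 3 had an unadjusted p under 0.05 (15.5% of all genes). Uhrf1, which brings the maintenance methyltransferase to replicated DNA, had 1.34, 0.817 and 0.829 CPM in WT and 2.84, 21.9 and 28.0 CPM in KO (log2 fold change 4.12, SE 0.86, edgeR adjusted p 0.115). Dnmt1, that methyltransferase, had 44.8, 34.0 and 32.7 CPM in WT and 41.6, 78.5 and 255 CPM in KO (log2 fold change 1.75, adjusted p 0.264). Markers of dividing cells were higher in the same 3 KO libraries, at 101, 656 and 493 CPM against at most 17.1 CPM in WT, and their part was not tested.

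At 1 month 0 of 14 passed and 2 had an unadjusted p under 0.05 (21.5% of all genes). Dnmt1 had 30.5, 30.6 and 30.6 CPM in WT and 19.6, 18.1 and 18.9 CPM in KO, without overlap (log2 fold change -0.70, SE 0.22, edgeR adjusted p 0.107). Pds5b, a cohesin regulator, had a log2 fold change of 0.42 and did not pass. Uhrf1 had 1 to 3 counts per library. Ctcf had 114 to 223 CPM in WT and 84.9 to 186 CPM in KO (log2 fold change -0.41, adjusted p 0.252), and 185 to 254 against 235 to 350 CPM at 1 week (0.46, adjusted p 0.460). Zfp57, which holds imprints at germline-marked regions together with Trim28 and Zfp445, had 1.34, 2.22 and 6.12 CPM in WT and 2.30, 3.98 and 12.5 CPM in KO at 1 week (log2 fold change 0.92, adjusted p 0.596) and was not tested at 1 month. Trim28 and Zfp445 did not pass at either time, with log2 fold changes of -0.31 and -0.18 at 1 week and 0.07 and -0.19 at 1 month.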
